A study of Sus scrofa with 6 samples.

Results

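The genes described here carry, take up and convert vitamin A in porcine granulosa cells (GCs), the somatic cells that surround the oocyte. They were chosen by symbol from a list of 9 genes, and 7 of the 9 were named among the 17950 Ensembl genes of the deposited table, namely *RBP4*, *STRA6*, *CRABP2*, *ALDH1A1*, *ALDH1A2*, *DHRS3* and *CYP26B1*. *CRABP1* and *RDH10* were not found by symbol and were not analysed here. The study asked what overexpression of *RBP4* changes in these cells. GCs of Landrace pigs, aspirated from follicles of pre-pubertal gilts, were held for 24 h in medium with 10% FBS and then infected for 72 h. The pLVX-*RBP4* group received the lentivirus pLVX-*RBP4*-IRES-ZsGreen, which carries porcine *RBP4* and the green fluorescent protein ZsGreen. The CTRL group received the same vector without *RBP4*, so that both groups were exposed to lentivirus carrying ZsGreen. Each group had 3 libraries, described in the study as biological triplicates, and GEO's labels do not say how many animals they came from. The introduced *RBP4* is driven by the vector and not by the promoter of the gene itself, and the share of cells that were infected was not analysed here.

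The table holds 1 value per gene and group in FPKM, fragments scaled to transcript length and to the mapped fragments. No value of a single library was used, so the spread between replicates is unknown here, no test could be made from these values, and whether a difference exceeds that spread cannot be said from them. The study's own test between the groups, made with Cuffdiff on the libraries, was not used. Differences were taken on the scale of log2(FPKM + 1), pLVX-*RBP4* minus CTRL, which understates the change of low genes. The 12382 genes whose mean over both groups reached 1 FPKM serve as the background. Their median difference was 0.0014 on this scale, and the 5th and 95th percentiles were -0.33 and 0.37. A gene was counted as higher or lower at 1.2-fold on the FPKM + 1 scale, a limit of 0.26 in log2 units. By this limit 11.0% of the 12382 genes were higher and 8.63% lower.

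Retinol, the alcohol form of vitamin A, travels in blood bound to RBP4, a small lipocalin that the liver secretes. STRA6 in the cell membrane binds RBP4 and passes retinol into the cell. Retinol is then oxidized to retinal, and retinal dehydrogenases of the ALDH1A family turn retinal into retinoic acid (RA), the ligand of the nuclear RA receptors. DHRS3 runs the first step backwards and reduces retinal to retinol, while enzymes of the CYP26 family break RA down. Granulosa cells are exposed to retinol in the follicular fluid, and the ovary is among the tissues in which RA acts. In cell culture, serum is itself a source of retinol and of RBP4 protein.

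*RBP4* (ENSSSCG00000010479), the introduced gene, was examined first, because it checks the labels of the groups. It had 1.10 FPKM in CTRL cells and 92.3 FPKM in pLVX-*RBP4* cells, a ratio of 83.6 and a log2 difference of 5.47. In the CTRL group *RBP4* ranked 12215 of the 17950 genes by FPKM, close to *ALDH1A2* in the lower part of the detected genes. In the pLVX-*RBP4* group it ranked 1203 of 17950. Among the 12329 background genes with a value above 0 in both groups, its log2 difference was number 2 from the top. The study amplified the coding sequence of porcine *RBP4* from start to stop codon for the vector, so reads of the introduced and of the pig's own *RBP4* fall on the same gene and are not separated in the FPKM.

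*RBP4* was also assayed by RT-qPCR in the study. The pair of primers is shown here because it defines the stretch of *RBP4* messenger RNA that was assayed outside the sequencing. The reverse primer begins with the bases that end the study's reverse cloning primer, so this stretch belongs to the introduced coding sequence. Like the FPKM, the assay thus does not separate the introduced from the pig's own *RBP4*. Each primer has 18 bases. They are given 5′ to 3′ as designed, in lower case throughout, since no part of them is singled out, and the reverse primer reads on the opposite strand.
*RBP4* forward primer: gggcgtagcatccttcct
*RBP4* reverse primer: tccgatttgccatcacag

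**Figure D1:**
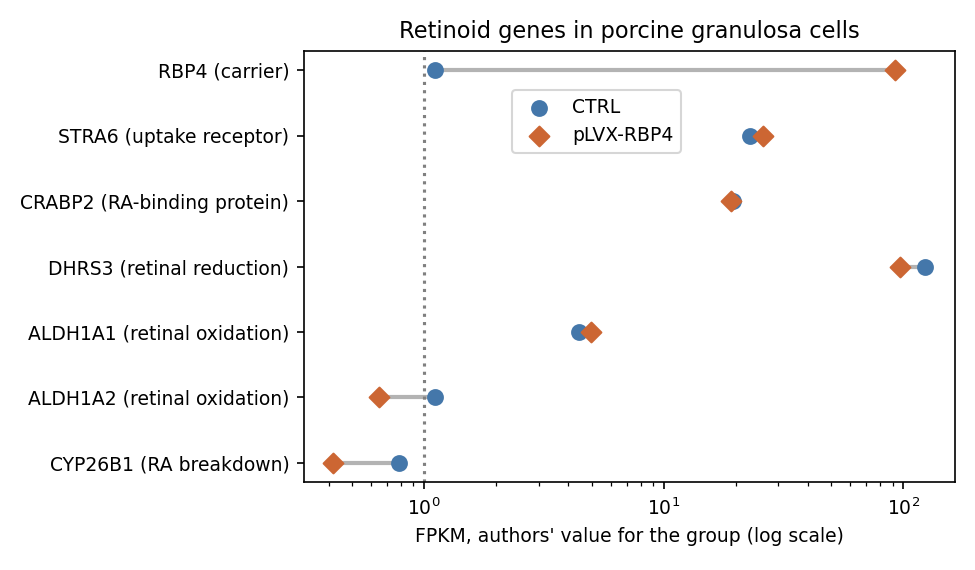
FPKM (log scale, horizontal axis) of the 7 genes in CTRL cells (circles) and pLVX-*RBP4* cells (diamonds), 1 authors' value per group, with a dotted line at 1 FPKM. *RBP4* spans 1.10 to 92.3 FPKM, whereas the symbols of *STRA6*, *CRABP2* and *ALDH1A1* lie close together and those of *DHRS3*, *ALDH1A2* and *CYP26B1* are shifted to lower values in pLVX-*RBP4* cells.

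*STRA6* (ENSSSCG00000001909), the membrane receptor that takes up retinol from RBP4, had 22.9 FPKM in CTRL cells and 26.0 FPKM in pLVX-*RBP4* cells, a ratio of 1.14 and a log2 difference of 0.18, which is within the 1.2-fold limit. *STRA6* was thus detected in both groups, at rank 4038 and 3636 of 17950. As FPKM values are per length, levels of different genes in a group can be roughly set against each other. For *RBP4* in pLVX-*RBP4* cells there is a limit, since the vector holds only its coding sequence. Whether the length used for its FPKM fits the introduced transcript was not tested, and all ratios and shares with *RBP4* in those cells carry this limit. In the CTRL group the FPKM of *RBP4* was 0.0483 times that of *STRA6*, and in pLVX-*RBP4* cells it was 3.55 times that of *STRA6*. The FPKM of the carrier was thus far below that of its receptor in CTRL cells and above it in pLVX-*RBP4* cells.

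Inside the cell, RA is held by small binding proteins of the fatty acid binding protein family. *CRABP2* (ENSSSCG00000006472), which binds RA and carries it to the RA receptors in the nucleus, had 19.5 FPKM in CTRL cells and 19.1 FPKM in pLVX-*RBP4* cells. Its log2 difference of -0.02 was the closest to 0 of the 7 genes, and its sign turned to 0.05 after rescaling to a common sum (TPM).

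*DHRS3* (ENSSSCG00000003439), the reductase that returns retinal to retinol, had the highest FPKM of the 7 genes in both groups. It had 123.2 FPKM in CTRL cells, rank 847 of 17950, and 97.0 FPKM in pLVX-*RBP4* cells, rank 1151. The ratio was 0.788 and the log2 difference -0.34, past the 1.2-fold limit and beyond the 5th percentile of the 12382 genes. Highly expressed genes differed less often in this direction. Of the 2074 genes with a mean of 50 FPKM or more, a band chosen after the values were seen, 3.04% were at least 1.2-fold lower and 13.9% at least 1.2-fold higher, and *DHRS3* was number 33 from the bottom. After rescaling to a common sum its difference was -0.262, just inside the limit of 0.263. Measured from the median of all 12382 genes, the difference of *DHRS3* lay between -0.35 and -0.33 under each of 5 scalings, namely as deposited, to a common median, to a common upper quartile, to a common sum, and to a common sum without the most abundant gene. Each scaling multiplies a group by 1 factor, which is largely cancelled when the median is taken away. This narrow range was thus fixed by the arithmetic and does not show how firm the difference is.

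*ALDH1A1* and *ALDH1A2*, whose enzymes make RA from retinal, were expressed at far lower levels than *DHRS3*. *ALDH1A3*, of the same family, was not found by symbol. *ALDH1A1* (ENSSSCG00000028996) had 4.45 FPKM in CTRL cells and 4.96 FPKM in pLVX-*RBP4* cells, a log2 difference of 0.13, within the 1.2-fold limit. *ALDH1A2* (ENSSSCG00000025578) had 1.11 FPKM and 0.649 FPKM, a ratio of 0.587 and a log2 difference of -0.35. *ALDH1A1* was thus the main transcript of the pair, with 4.02 times the FPKM of *ALDH1A2* in CTRL cells and 7.63 times in pLVX-*RBP4* cells. *DHRS3* had 27.7 times the FPKM of *ALDH1A1* in CTRL cells and 19.6 times in pLVX-*RBP4* cells.

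*CYP26B1* (ENSSSCG00000008311), an RA hydroxylase, had the lowest FPKM of the 7 genes, with 0.784 in CTRL cells and 0.418 in pLVX-*RBP4* cells. The ratio was 0.533 and the log2 difference -0.33. *CYP26B1* and *ALDH1A2* both had a mean FPKM below 1 and were not counted against the 12382 genes. Differences of this size were more frequent at that level, where of the 883 genes with a mean FPKM from 0.5 to below 1, 13.3% were at least 1.2-fold lower and 13.5% at least 1.2-fold higher. *CYP26A1*, the other RA hydroxylase found by symbol, was listed at 0 in both groups.

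Of the 7 genes, 5 passed the limit on mean FPKM, of which *RBP4* was at least 1.2-fold higher and *DHRS3* at least 1.2-fold lower, against the 11.0% and 8.63% of all genes given above. *RBP4*, introduced by design, was also the only one past 2-fold, a limit that 0.493% of the 12382 genes reached upward and 0.460% downward. All 7 genes had a value above 0 in both groups. Without *RBP4*, the median difference of the other 6 was -0.18, with 2 genes higher and 4 lower in pLVX-*RBP4* cells. Among the 4 lower genes, *ALDH1A2* and *CYP26B1* had a mean below 1 FPKM, and *CRABP2* differed by only -0.02. The medians of the gene lists below leave out genes with a mean below 1 FPKM, so the value of -0.18 is not comparable with them. In the CTRL group the order by FPKM was *DHRS3*, *STRA6*, *CRABP2*, *ALDH1A1*, *ALDH1A2*, *RBP4* and *CYP26B1*. In the pLVX-*RBP4* group *RBP4* moved from place 6 to place 2, and the order of the other genes was the same. Which neighbours in these orders differ by more than the spread between libraries is not known. The closest were *ALDH1A2* and *RBP4* in CTRL cells, with 1.107 and 1.105 FPKM, and *STRA6* stood at 1.17 times *CRABP2* there. Of the FPKM summed over the 7 genes, *DHRS3* made up 71.2% in CTRL cells and 40.3% in pLVX-*RBP4* cells, and *RBP4* 0.639% and 38.4%. The introduced *RBP4* enlarges this sum and by itself lowers the shares of the other genes. The ratio of *DHRS3* between the groups was 0.788.

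**Figure D2:**
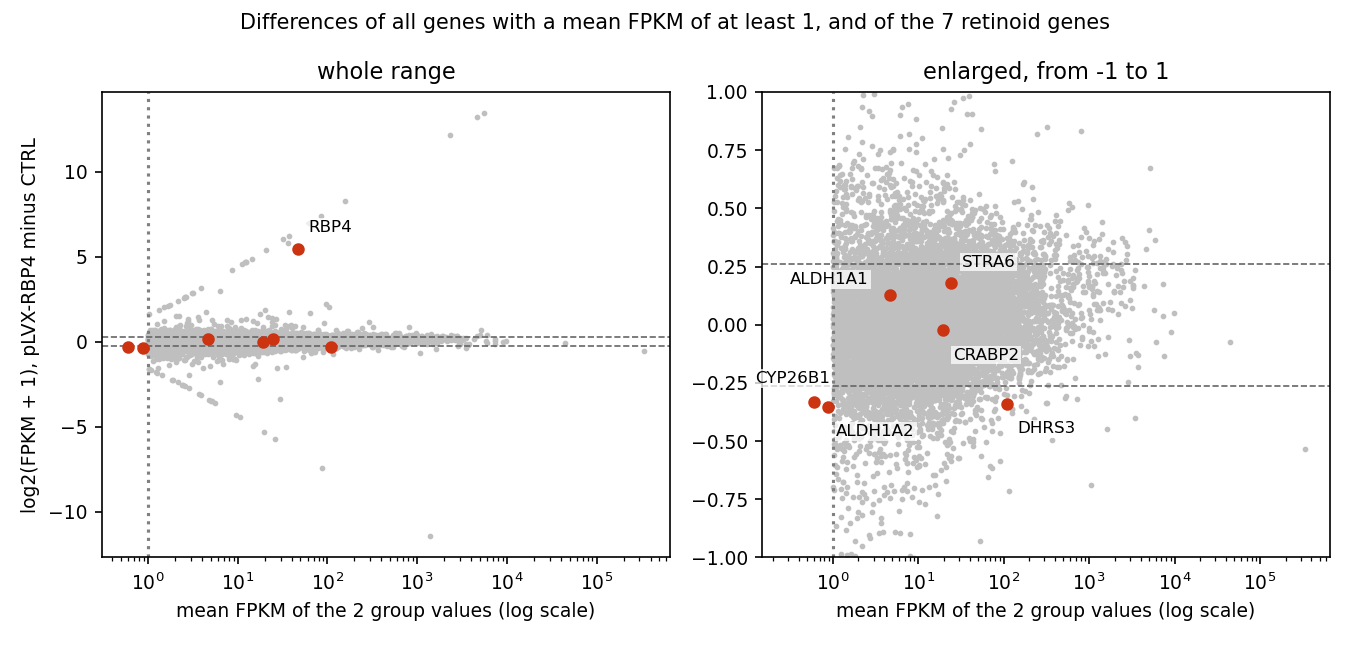
Difference of log2(FPKM + 1), pLVX-*RBP4* minus CTRL (vertical axis), against mean FPKM (log scale, horizontal axis) for the 12382 background genes (grey) and for the 7 retinoid genes (red), with dashed lines at 1.2-fold and a dotted line at 1 FPKM. *RBP4* stands at 5.47 in the left panel, and in the right panel, which is limited to differences from -1 to 1, *DHRS3* lies at -0.34 among highly expressed genes while *STRA6*, *CRABP2* and *ALDH1A1* lie between the dashed lines.

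The direction of small differences depended on how the groups were scaled to each other. A single gene, ENSSSCG00000025162, took 35.4% of the summed FPKM in CTRL cells and 25.8% in pLVX-*RBP4* cells. Rescaled to a common sum without that gene, the median of the 12382 genes was -0.11, and rescaled with it 0.072. The genes past 1.2-fold numbered 1364 higher and 1069 lower as deposited, 2138 and 597 when scaled to a common sum, 1075 and 1381 by upper quartile scaling, and 669 and 2568 after rescaling without the highest gene. *STRA6* and *ALDH1A1* remained above 0, and *DHRS3*, *ALDH1A2* and *CYP26B1* below 0, under each of the 5 scalings. *STRA6* ranged from 0.064 to 0.25 and *ALDH1A1* from 0.033 to 0.19.

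**Figure D3:**
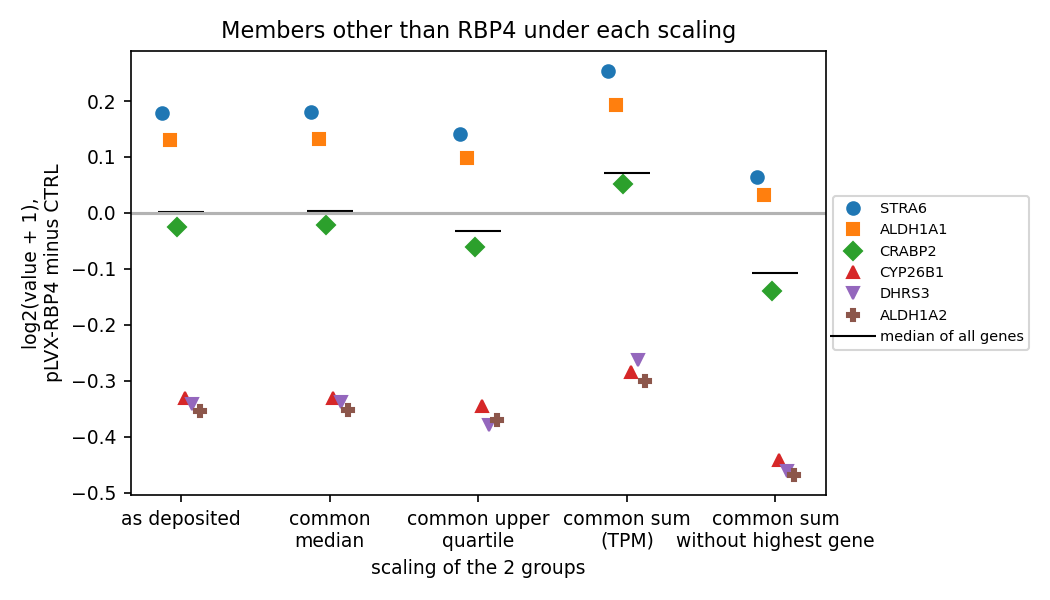
Difference of log2(value + 1), pLVX-*RBP4* minus CTRL (vertical axis), of the 6 genes other than *RBP4* under 5 scalings of the groups (horizontal axis), with the median of the 12382 genes as a black dash. *CRABP2* lies near the median of all genes, from -0.14 to 0.05, *STRA6* and *ALDH1A1* lie above it, and *DHRS3*, *ALDH1A2* and *CYP26B1* lie together below it. As each scaling multiplies a group by 1 factor, the genes and the median shift together, and their places relative to the median are nearly fixed in advance.

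A wider list of 49 retinoid genes outside these 7, from transport and storage to breakdown, was examined for the same steps. A row was found by symbol for 24 of them, and 12 had a mean of 1 FPKM or more. Of these 12, 8 had a difference above 0 and 4 below 0, with a median difference of 0.076. Past 1.2-fold were 1 upward and 0 downward, against 11.0% and 8.63% of all genes. After rescaling without the highest gene, 4 of the 12 were above 0 and the median was -0.042. *DHRS7*, a short-chain dehydrogenase, was the gene past the limit, with 7.28 FPKM in CTRL cells, 9.21 FPKM in pLVX-*RBP4* cells and a log2 difference of 0.30.

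Abundant genes of the wider list were *RDH11*, *SCARB1*, *ADH5* and *DHRS4*. *RDH11*, a retinol dehydrogenase of the endoplasmic reticulum, had 87.8 FPKM in CTRL cells and 98.7 FPKM in pLVX-*RBP4* cells. *DHRS3* had 1.40 times the FPKM of *RDH11* in CTRL cells and 0.983 times in pLVX-*RBP4* cells, so *DHRS3* was above *RDH11* in CTRL cells and slightly below it in pLVX-*RBP4* cells. *SCARB1*, a lipoprotein receptor that also takes up carotenoids, had 79.3 and 84.0 FPKM, and the alcohol dehydrogenase gene *ADH5* had 71.5 and 81.2 FPKM. *DHRS4*, which reduces retinal among other substrates, had 66.1 and 69.4 FPKM, and the signs of *SCARB1* and *DHRS4* turned with the scaling.

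Several genes of the wider list had values at or near 0. A value of 0 in a table without counts can also be a failed estimate, and is given here as listed. *LRAT*, the main enzyme that esterifies retinol for storage, had 0.0198 FPKM in CTRL cells and was listed at 0 in pLVX-*RBP4* cells. *DGAT1*, an acyltransferase of triglyceride synthesis that can also esterify retinol, had 22.2 and 21.1 FPKM. *ALDH8A1* and *DHRS9* were listed at 0 in both groups, like *CYP26A1*. The 12 genes with a mean FPKM below 1 also include *BCO2*, a carotenoid-cleaving enzyme, with 0.802 and 0.714 FPKM, and *RDH12* with 0.443 and 0.287 FPKM. How many reads such values rest on cannot be read from the table.

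Genes known to respond to RA were examined as a list of 29 genes, of which 17 had a row and 12 a mean of 1 FPKM or more. The list shares some genes with the wider retinoid list. Of the 12 genes, 4 had a difference above 0 and 8 below 0, and the median difference was -0.056, or 0.017 with 7 of 12 above 0 after rescaling to a common sum. As deposited, 1 gene was past 1.2-fold upward and 1 downward, against 11.0% and 8.63% of all genes. These counts depended on the scaling. Rescaled to a common sum, 2 genes were past the limit upward and 0 downward, against 17.3% and 4.82% of all genes. Rescaled without the highest gene, 0 were past it upward and 3 downward, against 5.40% and 20.7% of all genes. *RARRES1*, a gene first found by its induction by retinoids, had 125.8 FPKM in CTRL cells and 153.0 FPKM in pLVX-*RBP4* cells, a log2 difference of 0.28. *SMAD3*, a signal transducer of TGF-β and activin, had 48.8 and 39.9 FPKM, a log2 difference of -0.28. *SMAD3* was inside the limit after rescaling to a common sum (-0.20), and *RARRES1* after rescaling without the highest gene (0.16).

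The highest levels in the list of RA-responsive genes were those of *TGM2*, a transglutaminase, with 1587.9 FPKM in CTRL cells and 1453.4 FPKM in pLVX-*RBP4* cells. *PLAT*, the tissue plasminogen activator, had 176.4 and 203.4 FPKM. *RARB*, the RA receptor gene that RA itself induces, had 6.34 and 7.13 FPKM, a log2 difference of 0.15. *STRA8* and *MEIS2* were below 1 FPKM in both groups. Among the other receptors, *RARA* had 71.7 and 63.1 FPKM, *RARG* 9.92 and 9.86 FPKM, and *RXRB* 19.2 and 19.8 FPKM. *RXRG* was listed at 0 in CTRL cells and had 0.0186 FPKM in pLVX-*RBP4* cells, and *RXRA* was not found by symbol.

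RBP4 belongs to the lipocalins, secreted proteins that carry small hydrophobic molecules, and 6 of 13 other lipocalin genes had a row. Of these, 4 had a mean of 1 FPKM or more, and 1 was past 1.2-fold, downward, against 8.63% of all genes. *LCN2*, a lipocalin that binds bacterial siderophores, had 69.8 FPKM in CTRL cells and 36.2 FPKM in pLVX-*RBP4* cells, a ratio of 0.518 and a log2 difference of -0.93. The FPKM of *LCN2* was 63.2 times that of *RBP4* in CTRL cells and 0.392 times in pLVX-*RBP4* cells. *APOD*, *SAL1* and *C8G* had between 1.67 and 3.27 FPKM, with differences from -0.18 to 0.11. *APOM*, which is below 1 FPKM in both groups, had 0.289 and 0.483 FPKM, and *AMBP* had 0.0429 and 0.118 FPKM.

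**Figure D4:**
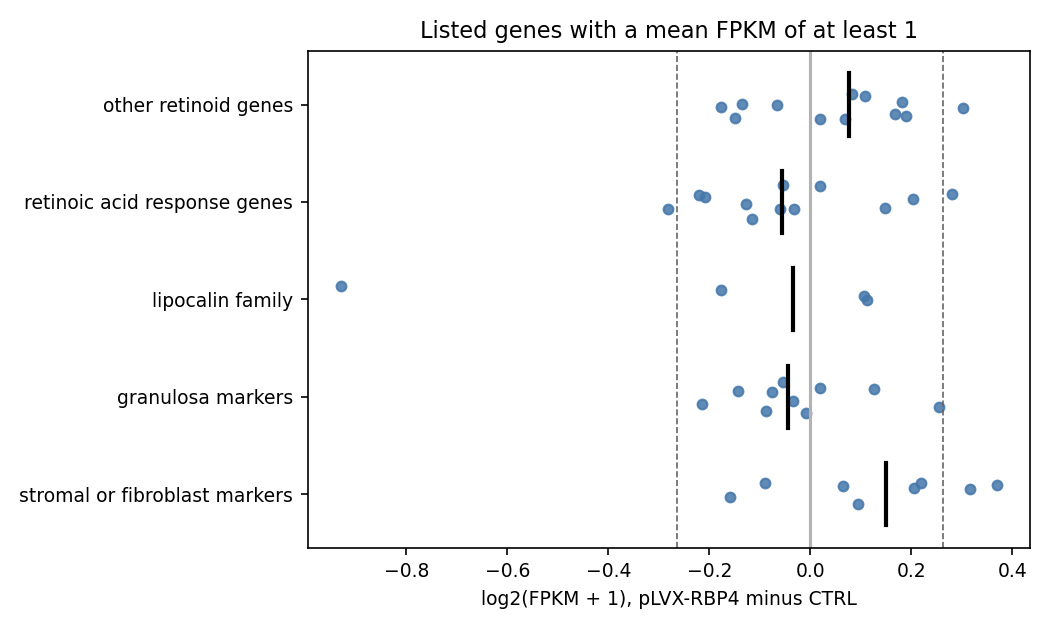
Difference of log2(FPKM + 1), pLVX-*RBP4* minus CTRL (horizontal axis), for the listed genes whose mean reached 1 FPKM, 1 point per gene, spread vertically for visibility, with the list's median as a black bar and dashed lines at 1.2-fold. *LCN2* at -0.93 is the farthest from 0, and the medians lie at 0.076 for other retinoid genes, -0.056 for retinoic acid response genes, -0.035 for lipocalins, -0.044 for granulosa markers and 0.15 for stromal markers.

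The identity of the cells was compared with marker genes. Of 18 granulosa markers, 10 were found by symbol and had a mean of 1 FPKM or more. As deposited none was past 1.2-fold, against 11.0% of all genes upward and 8.63% downward. *FST*, the activin-binding follistatin, reached 0.33 after rescaling to a common sum, and *FSHR*, the receptor of follicle-stimulating hormone, -0.33 after rescaling without the highest gene. Of the 10 markers, 3 had a difference above 0 as deposited, 6 with the first of these scalings and 2 with the second. Their summed FPKM was 1128.6 in CTRL cells and 1142.5 in pLVX-*RBP4* cells. *CYP11A1*, which makes pregnenolone from cholesterol, had 672.9 and 669.4 FPKM, and *FSHR* had 9.99 and 8.47 FPKM. *CYP19A1* and *FOXL2* were not found by symbol. Of 10 stromal or fibroblast markers, 8 had a row, with a summed FPKM of 3247.8 and 3510.3. Most of this sum came from *TAGLN*, with 1809.4 and 1891.4 FPKM, and *ACTA2*, with 644.1 and 687.8 FPKM. Their differences were 0.06 and 0.09. As deposited, 6 of the 8 were above 0 and 2 below 0. Those below 0 were *PDGFRA* (-0.16) and *PDGFRB* (-0.09), and both stayed below 0 under each scaling. *DCN* and *LUM* were past 1.2-fold upward, with differences of 0.32 and 0.37 as deposited. *DCN* was inside the limit without the highest gene (0.20), where 4 of the 8 were above 0 and the list's median was 0.032 instead of 0.15, while *COL1A2* (0.28) and *COL3A1* (0.30) were past it after rescaling to a common sum. The part of these markers in the differences of the retinoid genes was not tested.

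Markers of other cells of the ovary were mostly low. For theca cells, 4 of 5 markers had a row, with a summed FPKM of 2.63 in CTRL cells and 2.39 in pLVX-*RBP4* cells, and *INSL3* was listed at 0 in CTRL cells. For leukocytes, 5 of 6 had a row, with a summed FPKM of 49.4 and 55.2, of which *CD14* made up 42.9 and 48.9, while the pan-leukocyte gene *PTPRC* had 0.229 and 0.166 FPKM. The summed FPKM was 19.9 and 19.0 for 2 of 6 endothelial markers, 3.36 and 3.57 for 2 of 6 oocyte markers, and 13.0 and 13.3 for 2 of 7 markers of surface epithelium. In bulk RNA, fewer cells of a type and less RNA per cell cannot be told apart.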

How the data were processed

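RNA of porcine GCs was sequenced in 6 libraries, 3 per group. Per the methods of the study, TopHat2 aligned paired-end reads to Sscrofa10.2 and Cuffdiff of Cufflinks compared the groups. Tool versions and the annotation release were not given in the sources used here. The deposited values are FPKM, computed by the authors, a single column for each group. Columns C and R were read as CTRL and pLVX-*RBP4* from the sample titles, and 0 columns of values were left out. Symbols came from a table of Ensembl gene names, which matched 10489 of 17950 genes.

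The difference of log2(FPKM + 1) was computed with a pseudocount of 1, and counts used genes whose mean reached 1 FPKM and a limit of 1.2-fold. With 1 value per group no model could be fitted, so no p-value, SD or SE is given. FPKM values carry no read counts, and the library totals of the study were not used here. A single fragment is worth less FPKM in a deeper group, and in 865 genes with a mean below 0.1 FPKM and no value of 0, the ratio of pLVX-*RBP4* to CTRL fell most often (123 genes) between 0.7 and 0.8, against 22 genes between 1.0 and 1.1.

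The genes and lists were chosen with earlier results of these data known. Named from each of the 3 gene lists outside the 7 genes were those past 1.2-fold and the 5 with the highest mean FPKM. A gene that this rule names is not reported here. *RARB*, the other receptors, genes at or near 0 and marker genes were named after their values were seen. The counting step was tested on simulated data. Alternatives were pseudocounts of 0.1, 0.01 and none, 4 scalings, no filter, a mean FPKM of at least 5, and limits of 1.5-fold and 2-fold. Python 3.11.15, numpy 2.4.6 and pandas 2.3.3 were used.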

Additional observations from a re-analysis of the deposited data

How the results depend on the processing

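No value could be set against replicate error, so a log2 difference was taken as moved at a change of 0.1 and a count at a change of over 1.5 times. No paired analysis was possible because the table holds 1 value per group, and for the same reason no replicate could be left out. The log2 difference of *RBP4* was 6.26 with a pseudocount of 0.1, 6.37 with 0.01 and 6.38 with none. The median of the other 6 genes was -0.29 after rescaling without the highest gene. The count of the 7 genes past the limit, 2 as reported, was 1 after rescaling to a common sum (without *DHRS3*), 4 with no filter on low values (with *ALDH1A2* and *CYP26B1*), and 1 at 1.5-fold and at 2-fold. For the wider retinoid list the count was 2, *AOX1* and *CYP1A1*, both lower, after rescaling without the highest gene, where *DHRS7* was inside the limit, and 0 at 1.5-fold and at 2-fold. For the RA-responsive list it was 1 after upper quartile scaling, where *RARRES1* was inside the limit, and 0 at 1.5-fold and at 2-fold, and for the lipocalins 2, *LCN2* and *C8G*, after rescaling without the highest gene and with no pseudocount, and 0 at 2-fold. In the RA-responsive list the directions changed with a like total. The list had 1 higher and 1 lower as deposited, 2 and 0 with a common sum, and 0 and 3 without the highest gene. The shares of all genes higher and lower changed too, to 17.3% and 4.82% with a common sum, and to 5.40% and 20.7% without the highest gene. Of the single genes, *STRA6* moved to 0.064, *CRABP2* to -0.14 and *DHRS3* to -0.46 after rescaling without the highest gene. With the same scaling, *ALDH1A2* moved to -0.47 and *CYP26B1* to -0.44. The differences of *ALDH1A2* and *CYP26B1* were -0.69 and -0.77 with a pseudocount of 0.1, and -0.77 and -0.91 with none. The other log2 differences computed for the 7 genes and for the median moved by less than 0.1. The remaining totals stayed within 1.5 times, which does not say that they hold the same genes.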

Other observations

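The genes next to the 7 retinoid genes on the chromosome were read from the order of protein-coding genes in RefSeq's annotation of Sscrofa11.1, a later assembly than that of the FPKM values, so that it was used for gene order only. For 6 of the 7 genes, 12 nearest neighbours with a row were found, and 9 of them had a mean of 1 FPKM or more. Of these 9, 3 were at least 1.2-fold higher and 2 at least 1.2-fold lower in pLVX-*RBP4* cells, against 11.0% and 8.63% of all genes. *FRA10AC1*, the neighbour of *RBP4* on one side, had 5.41 FPKM in CTRL cells and 7.82 FPKM in pLVX-*RBP4* cells, a log2 difference of 0.46, whereas *CEP55* on the other side had 3.32 and 3.60 FPKM. *VPS13D*, next to *DHRS3*, had 14.9 and 11.5 FPKM and a difference of -0.34, the same to 2 decimals as that of *DHRS3*. *NES*, next to *CRABP2*, had 5.14 and 3.96 FPKM. Next to *STRA6*, *CCDC33* had 1.96 and 3.37 FPKM, and next to *ALDH1A1*, *ANXA1* had 384.6 and 523.5 FPKM.

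Within the *DHRS* genes, a family chosen after the values were seen, the directions were mixed as deposited. *DHRS1* had 34.2 FPKM in CTRL cells and 35.3 FPKM in pLVX-*RBP4* cells, a difference of only 0.04. *DHRS4* (0.07) and *DHRS7* (0.30) were also higher as deposited. The signs of *DHRS1* and *DHRS4* turned after rescaling without the highest gene. *DHRS13*, at 1.40 and 0.705 FPKM, was lower like *DHRS3*, with a difference of -0.50. In the *ALDH1* family, *ALDH1B1*, the gene of a mitochondrial aldehyde dehydrogenase that can also oxidize retinal, had 6.01 and 7.51 FPKM, a difference of 0.28 and a level above that of *ALDH1A1* in both groups.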
